A study of Homo sapiens with 3 samples.

Results

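The genes described are 10 stimulus-responsive genes: the 7 genes that encode the subunits of AP-1 (FOS, FOSB, FOSL1, FOSL2, JUN, JUNB and JUND) and the immediate early genes EGR1, IER2 and IER3. They were chosen by gene symbol from the 58735 genes of the count tables, and each was found once. RNA was sequenced in 3 libraries, 1 per condition, from A549, an established human lung adenocarcinoma line. The conditions were a control (Control-sh) and 2 knockdowns, DDX24-sh1 and DDX24-sh2, each by its own shRNA to the DEAD-box RNA helicase DDX24. All 3 lines were grown in F12K medium with fetal bovine serum, and the study's methods describe lentiviral pLKO.1 vectors with puromycin selection and continued puromycin for every line, the control included. The methods name the empty vector as control, whereas a figure legend names a control shRNA, so what the control cells carried is not known. It is also not stated whether the lines were pools or clones. With 1 library per condition, DDX24 depletion cannot be told apart from any other difference between single cultures.

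AP-1 is a family of dimers of basic leucine zipper proteins that bind a short DNA site. JUN proteins pair with each other or with FOS proteins, whereas FOS proteins need a JUN partner. FOS, FOSB, JUN, JUNB, EGR1 and the IER genes are immediate early genes, which growth factors and stress switch on within minutes through factors already present in the cell, such as SRF with its ELK and MRTF partners and CREB, and whose RNA is then quickly degraded. JUND is held at a steadier level.

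Below, 3 values in a row are those of Control-sh, DDX24-sh1, DDX24-sh2 in that order, and 2 ratios in a row are those of DDX24-sh1, then DDX24-sh2. The total count was 17218884, 18337471 and 17847190, and 13984 genes, among them all 10 members, had a mean of at least 1 CPM (counts scaled to library size). DDX24 had 2010, 637 and 765 counts in these libraries, and its CPM was 29.6% of the control level in DDX24-sh1, 36.0% in DDX24-sh2. The epithelial keratin KRT8 stood at 3542 to 3800 CPM in the 3 libraries, and the 5 epithelial-line markers summed to 4958 to 5333 CPM, most of it KRT8 and KRT18. Of the leukocyte markers, PTPRC and CD3E had no count and CD68 had 0, 1 and 5. Of the alveolar markers, NKX2-1 had no count, SFTPB had 0, 2 and 3, SFTPC 3, 4 and 4, and NAPSA 23, 28 and 36. The epithelial marker EPCAM was at 1.59 to 1.87 CPM. Other epithelial markers differed between the libraries, with KRT19 at 58.6, 123 and 151 CPM and CDH1 at 31.5, 19.6 and 14.5 CPM, and their part in the members' ratios was not tested. Mitochondrial genes held 4.36%, 5.13% and 7.04% of counts, and all 20 member ratios stayed within their counting intervals when these genes were left out of the scaling. The shRNA labels of the counts and of the deposited FPKM values are exchanged: FPKM labelled DDX24-sh1 matched the counts labelled DDX24-sh2 within 1% in 100% of 12136 genes with at least 50 counts, and the reverse held in 100% of 12171. The names below are those of the counts. Which of the 2 is right is not known, so a statement on 1 shRNA library holds for the library and not with certainty for the hairpin.

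For most members the control library had the highest level. By the counting interval, which is the exact 95% range that the counts of 2 libraries allow for a ratio, 9 of the 10 members lay below the control in DDX24-sh1 (29.5% of all genes did), and only IER2 did not. In DDX24-sh2, 7 lay below it (30.8% of all genes) and 1, FOS, above (23.6% of all genes). A well-counted gene passes the interval at a smaller ratio, and these shares of all genes, here and below, were not matched for depth. FOSL2 lay below the control in DDX24-sh1 at a log2 ratio of -0.24, and 27.1% of all genes had a lower ratio. The median log2 ratio of the 10 members to the control was -0.53 for DDX24-sh1 and -0.48 for DDX24-sh2, against -0.02 and -0.03 over all 13984 genes. EGR1 and FOSB were lower by more than 2-fold in both shRNA libraries (1.38% of all genes were), JUND was so in DDX24-sh2, and FOS was 5.22-fold higher in DDX24-sh2. FOSB, at 3.63, 0.82 and 1.16 CPM, reached the mean of 1 CPM largely through its control level. The background genes passed the same filter, which includes the control. Both ratios use the same control library, so a low or high control value moves both in the same direction.

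At 2-fold, taken library by library, 0 members were higher in DDX24-sh1 (2.32% of all genes) and 2 were lower (2.27% of all genes). In DDX24-sh2, 1 member was at least 2-fold higher (2.89% of all genes) and 3 were lower (3.07% of all genes). In both libraries together 0 members were higher (1.19% of all genes). By the counting interval, 0 members lay above the control in DDX24-sh1 (23.6% of all genes). In both libraries, 0 lay above (14% of all genes) and 7 below (20.6% of all genes), the 7 being FOSB, FOSL2, JUN, JUNB, JUND, EGR1 and IER3. These intervals cover counting error only. They hold no variation between cultures. Whether the reads carried molecular identifiers is not given, so the reads cannot be taken as independent molecules. In RNA from a whole culture, fewer responding cells and less RNA per cell cannot be told apart.

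**Figure D1:**
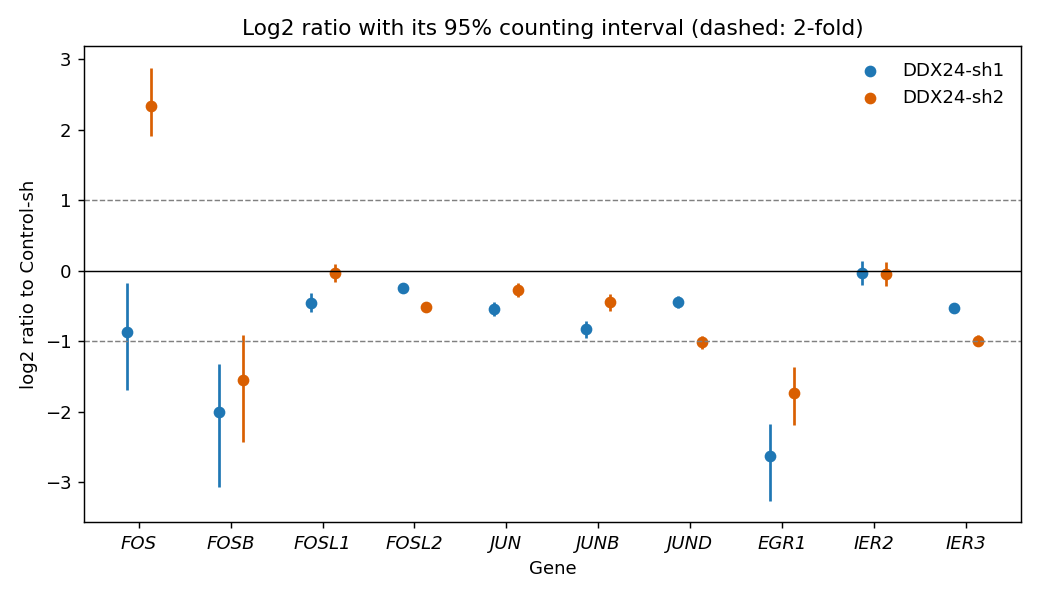
Log2 ratio of each member to Control-sh (vertical axis) in DDX24-sh1 (blue) and DDX24-sh2 (orange), 1 library each, with bars for the 95% counting interval and dashed lines at 2-fold. FOSB and EGR1 lie below the lower dashed line in both libraries, and FOS is at -0.86 in the first and 2.34 in the second.

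The upstream sequences of the 4 members that reached 2-fold in at least 1 library are shown, because they hold the letters of sites that CREB binds and, in EGR1, also of those that SRF binds. The sequences are RefSeq's on GRCh38.p14, at most 250 bases that end before the annotated start of the gene. Capitals mark the CRE core TGACGT or its reverse complement ACGTCA, the full cyclic AMP response element (CRE) TGACGTCA, which contains that core, and the CArG box that SRF binds.
EGR1 (chr5:138465229-138465478, plus strand): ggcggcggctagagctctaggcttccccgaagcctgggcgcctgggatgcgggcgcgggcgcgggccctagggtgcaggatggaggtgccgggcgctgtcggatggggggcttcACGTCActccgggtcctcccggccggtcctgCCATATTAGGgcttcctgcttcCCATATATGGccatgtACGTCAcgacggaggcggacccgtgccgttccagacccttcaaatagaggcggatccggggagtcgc
FOSB (chr19:45467746-45467994, plus strand): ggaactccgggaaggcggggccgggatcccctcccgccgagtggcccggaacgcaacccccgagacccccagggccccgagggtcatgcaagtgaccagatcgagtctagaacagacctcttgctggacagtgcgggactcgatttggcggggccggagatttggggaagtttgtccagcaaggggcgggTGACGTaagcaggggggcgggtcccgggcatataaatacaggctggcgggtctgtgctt
FOS (chr14:75278578-75278773, plus strand): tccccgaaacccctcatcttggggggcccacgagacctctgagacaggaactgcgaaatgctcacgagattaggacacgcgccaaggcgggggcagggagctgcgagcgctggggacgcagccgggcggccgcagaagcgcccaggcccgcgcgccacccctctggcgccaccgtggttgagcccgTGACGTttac
JUND (chr19:18281623-18281872, minus strand): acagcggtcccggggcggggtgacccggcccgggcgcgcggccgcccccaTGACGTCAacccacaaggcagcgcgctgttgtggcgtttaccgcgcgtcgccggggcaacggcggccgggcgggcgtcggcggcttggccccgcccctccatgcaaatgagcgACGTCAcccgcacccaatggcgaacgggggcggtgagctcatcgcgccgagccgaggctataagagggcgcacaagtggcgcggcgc

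RefSeq promoter entries were found for 8 of the 10 members, all but FOSL1 and IER3, and the 250 bases before each RefSeq start were searched on both strands. EGR1 had 2 CArG boxes, CCATATTAGG starting at position -105 and CCATATATGG at -83 from the RefSeq start, and a CArG box was present in 1.14% of 27305 promoters. The CRE core was found at -64 in FOS, -60 in FOSB, -66 in FOSL2, -136 and -67 in EGR1 and -87 in JUND, beside the full CRE of JUND at -200. The core was present in 7.42% of promoters and the full CRE in 1.77%. JUN had TGACATCA at -67, searched as a JUN-type AP-1 sequence, which 2.45% of promoters held. None of the 8 held the other AP-1 pattern searched, TGANTCA with N as any base, present in 6.60%. TATAAA, found in 11.1% of promoters, stood at -33 in FOS, -30 in FOSB and -31 in JUNB, and IER2 held none of these motifs. All positions count from the RefSeq start, which is not always the annotated start of the gene in the count tables. For FOSL2 and JUN the annotated start lies upstream of all 250 bases, so their matches lie within the annotated gene. The TATAAA of FOS likewise lies past its annotated start and outside the bases shown. Of the members with a CRE core, EGR1, FOSB, FOSL2 and JUND lay below the control in both shRNA libraries. FOS lay below it in DDX24-sh1 and above it in DDX24-sh2. Of those searched that had no core, JUN and JUNB also lay below the control in both, and IER2 did not differ beyond counting error. A link between the core and the ratios was not tested. The well-known SRF element of FOS lies upstream of this window. A match of letters is not a binding site, and no binding was measured.

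Among the FOS proteins, FOS is the classical partner of JUN and a strong activator. The FOS gene (ENSG00000170345, chr14:75278774-75282230 on GRCh38) had 44 counts in the control library, 25 in DDX24-sh1 but 243 in DDX24-sh2, which are 2.58, 1.37 and 13.5 CPM. DDX24-sh2 stood far above the other libraries, which were low. The log2 ratio to the control was -0.86 for DDX24-sh1 (counting interval -1.69 to -0.18) and 2.34 for DDX24-sh2 (1.92 to 2.88), so the 2 shRNA libraries lay on opposite sides of the control, each beyond its counting error. FOS was the one member for which this was so, and 99.9% of the 13984 genes had a lower ratio than FOS in DDX24-sh2. Between the shRNA libraries FOS was 9.85-fold higher in DDX24-sh2, a log2 difference of 3.20 (2.70 to 3.96).

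FOSB, the closest relative of FOS and induced with it in many cells, did not share that pattern. The FOSB gene (ENSG00000125740, chr19:45467995-45475179) had 62, 15 and 21 counts, or 3.63, 0.82 and 1.16 CPM. Its level was low in all 3 libraries and highest in the control. The log2 ratio was -2.01 for DDX24-sh1 (-3.07 to -1.32) and -1.55 for DDX24-sh2 (-2.43 to -0.91), levels of 22.6% and 32.0% of the control. Of all genes, 0.265% had a lower ratio than FOSB in DDX24-sh1, and 0.880% had one in DDX24-sh2. The shRNA libraries did not differ in FOSB beyond counting error (log2 difference 0.45, -0.52 to 1.56), an interval that allows differences of either sign.

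FOSL1 encodes FRA1 and FOSL2 encodes FRA2, the FOS-related antigens that lack the strong activation domain of FOS. FOSL1 (ENSG00000175592, chr11:65892049-65900573) had 1030, 805 and 1067 counts, or 60.3, 44.0 and 59.1 CPM. It was lower in DDX24-sh1 (log2 ratio -0.45, -0.59 to -0.32) and not distinguishable from the control in DDX24-sh2 (-0.03, -0.15 to 0.10). FOSL2 (ENSG00000075426, chr2:28392448-28417312) had 6104, 5542 and 4504 counts, or 358, 303 and 249.5 CPM. The FOSL2 ratio was -0.24 for DDX24-sh1 (-0.29 to -0.19) and -0.52 for DDX24-sh2 (-0.58 to -0.46). FOSL1 and FOSL2 thus differed in which shRNA library was the lower one. FOSL1 shares 94.5% identity over 817 bases with its pseudogene FOSL1P1, and how reads that match both were counted is not given.

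The JUN proteins are the obligatory side of the classical FOS and JUN dimer, JUN being the strong activator, JUNB often a weaker one and JUND the steadily expressed form. JUN (ENSG00000177606, chr1:58780788-58784327) had 1793, 1320 and 1570 counts, or 105, 72.2 and 87.0 CPM. Its log2 ratio was -0.54 for DDX24-sh1 (-0.65 to -0.44) and -0.27 for DDX24-sh2 (-0.37 to -0.17). Both shRNA libraries were below the control, DDX24-sh1 more so. JUNB (ENSG00000171223, chr19:12791496-12793315) had 1437, 867 and 1113 counts, or 84.2, 47.4 and 61.7 CPM, with ratios of -0.83 (-0.95 to -0.71) and -0.45 (-0.56 to -0.34). JUNB shares 259 exon bases with HOOK2 on the opposite strand, whose 286 to 332 counts were well under those of JUNB, and whether counting used strand is not given.

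JUND (ENSG00000130522, chr19:18279760-18281622) had 2652, 2092 and 1389 counts, or 155, 114 and 76.95 CPM. Unlike JUN and JUNB, it was lowest in DDX24-sh2. The log2 ratio was -0.44 for DDX24-sh1 (-0.53 to -0.36) and -1.01 for DDX24-sh2 (-1.11 to -0.92). JUND was the member just inside 2-fold in DDX24-sh2 and IER3, at -0.99, the one just outside, and with scaling by total counts JUND stood at -0.98 and was no longer past 2-fold.

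EGR1, a zinc-finger transcription factor and one of the most responsive targets of ERK signalling, was the member with the lowest ratios in both libraries. EGR1 (ENSG00000120738, chr5:138465490-138469315) had 212, 35 and 66 counts, or 12.4, 1.91 and 3.66 CPM. The shRNA libraries were at 15.4% and 29.4% of the control, log2 ratios of -2.63 (-3.26 to -2.18) and -1.73 (-2.19 to -1.36). Only 0.114% of all genes had a lower ratio than EGR1 for DDX24-sh1 and 0.586% for DDX24-sh2. EGR1 was also higher in DDX24-sh2 than in DDX24-sh1, by a log2 difference of 0.90 (0.32 to 1.57).

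IER2 is a small nuclear protein that is induced with FOS, and IER3 (IEX-1) regulates cell survival and is induced by NF-kB and ERK signalling. IER2 (ENSG00000160888, chr19:13150415-13154908) had 560, 588 and 572 counts, or 32.8, 32.15 and 31.7 CPM. It was the member with the least difference, at log2 ratios of -0.03 (-0.20 to 0.14) and -0.05 (-0.22 to 0.12). IER3 (ENSG00000137331, chr6:30743199-30744554) had 3699, 2753 and 1967 counts, or 217, 150.5 and 109 CPM. Its levels were in the same order as those of JUND and FOSL2, with ratios of -0.53 (-0.60 to -0.45) and -0.99 (-1.07 to -0.91). Antisense genes overlap the exons of IER2 and IER3 by 946 and 359 bases and had 0 counts in all 3 libraries.

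**Figure D2:**
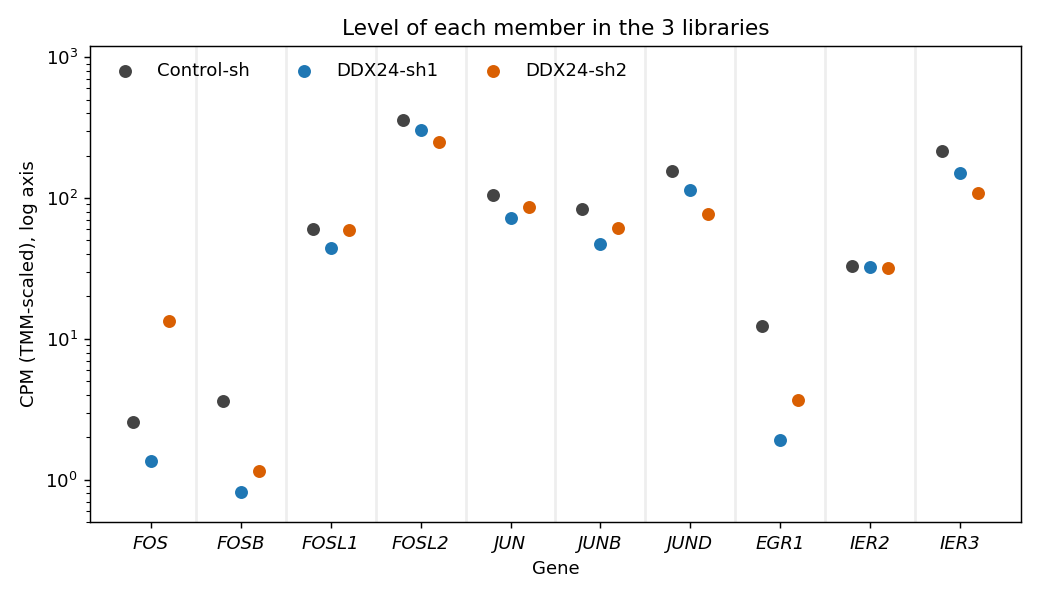
Level of each member in CPM with TMM scaling (log axis) in Control-sh (grey), DDX24-sh1 (blue) and DDX24-sh2 (orange), 1 point per library. FOS, FOSB and EGR1 are the lowest members here and per length, and FOS, at 13.5 CPM in DDX24-sh2 against 2.58 in Control-sh, is the one whose DDX24-sh2 point is clearly the highest.

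When the shRNA libraries were compared directly, FOS, EGR1, FOSL1, JUN and JUNB were higher in DDX24-sh2 than in DDX24-sh1 beyond counting error, 5 of 10 members against 21% of all genes. FOSL2, JUND and IER3 were lower in DDX24-sh2, 3 of 10 and thus near the 23.8% of all genes, and FOSB and IER2 did not differ beyond counting error. The log2 difference was 0.42 for FOSL1 (0.29 to 0.56), 0.38 for JUNB (0.25 to 0.51) and 0.27 for JUN (0.16 to 0.38). It was -0.57 for JUND (-0.67 to -0.47), -0.47 for IER3 (-0.55 to -0.38) and -0.28 for FOSL2 (-0.34 to -0.22). Each shRNA has 1 library, so a difference between hairpins and one between cultures cannot be told apart.

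**Figure D3:**
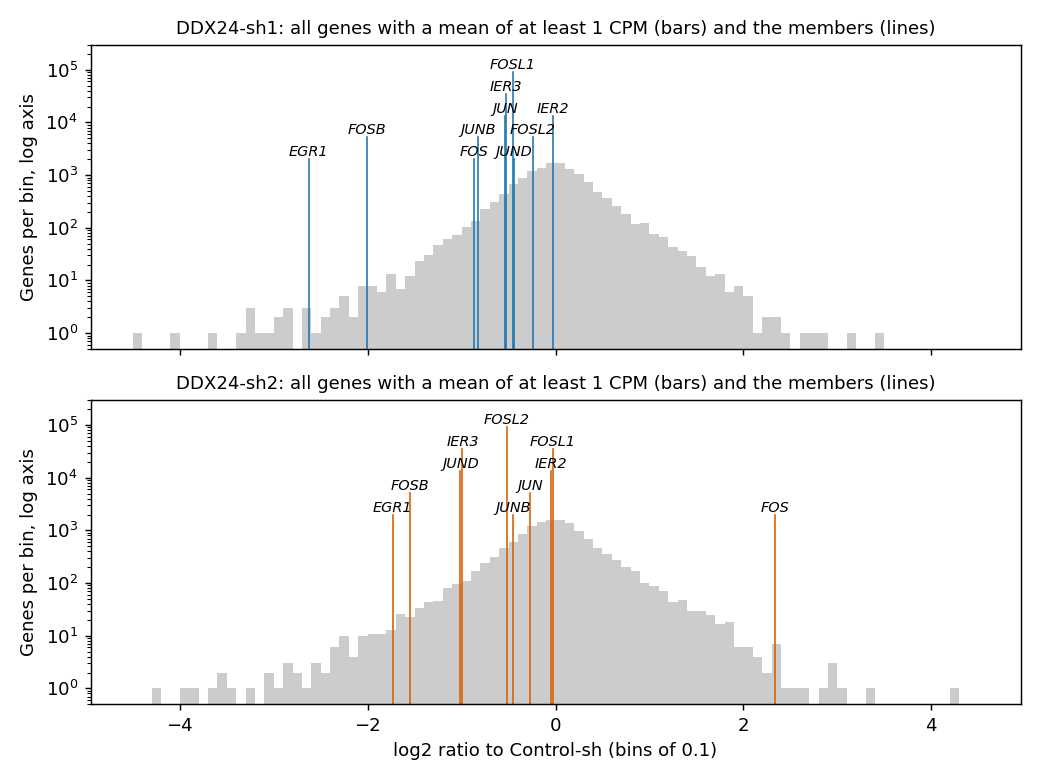
Histograms of the log2 ratio to Control-sh over the 13984 genes that averaged at least 1 CPM (bins of 0.1, number of genes on a log axis) for DDX24-sh1 and DDX24-sh2, with a vertical line at each member, whose height only separates the names. EGR1 and FOSB lie in the lower tail of both histograms, and FOS lies in the upper tail for DDX24-sh2.

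To compare levels between genes, CPM was divided by gene length in kilobases. The 7 AP-1 genes summed to 243, 174 and 170 CPM per kilobase, so the pool of subunit transcripts was at 71.7% and 70.2% of the control. JUND had the largest difference of the 7 on this scale, with 83.4, 61.4 and 41.3 CPM per kilobase, followed by JUNB in DDX24-sh1 (26.0 against 46.3 in the control) and by FOSL2 in DDX24-sh2, where it stood at 34.9 CPM per kilobase and 69.8% of the control. The JUN family summed to 159, 108 and 99.8 CPM per kilobase and the FOS family to 83.4, 66.2 and 70.6. The FOS family share of the pool was thus 34.4%, 38.1% and 41.4%. That order of the libraries holds for these levels per length and not for counts without length, where the share was 55.2%, 59.9% and 58.9%.

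Within the pool the order JUND, FOSL2, JUNB, FOSL1, JUN, FOS, FOSB was found in all 3 libraries. JUND held 34.4% of it in Control-sh, 35.3% for DDX24-sh1 and 24.3% for DDX24-sh2. FOSL1 held 13.2%, 13.4% and 18.4%, and JUN 12.2%, 11.7% and 14.4%. FOS had 0.80, 0.42 and 4.16 CPM per kilobase, so even in DDX24-sh2, where it was highest, it made up 2.44% of the pool, against 0.328% in the control. FOSL1 and FOSL2 therefore accounted for nearly the whole FOS family share in every library.

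**Figure D4:**
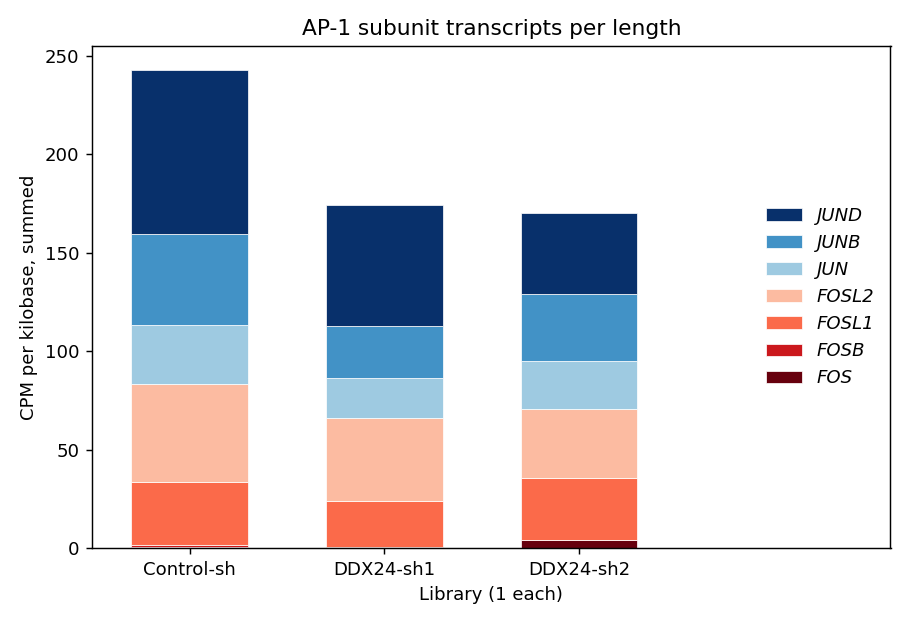
Stacked CPM per kilobase of the 7 AP-1 genes in each library (1 each), with JUN family members in blues and FOS family members in reds. The bars reach 243, 174 and 170, and the JUND segment is smallest in DDX24-sh2.

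Over all 10 members per length, IER3 was the highest in each library, at 159.8, 111 and 80.4 CPM per kilobase, followed by JUND, FOSL2, JUNB, FOSL1, JUN and IER2. EGR1, FOS and FOSB were last in Control-sh and DDX24-sh1, and in DDX24-sh2 FOS stood above EGR1. In Control-sh the neighbours FOSL1 and JUN, and FOS and FOSB, did not differ beyond counting error. In DDX24-sh1 this held for EGR1 and FOS, whose log2 difference per length was 0.53 (-0.25 to 1.33). In DDX24-sh2 it held for FOSL2 and JUNB and for JUNB and FOSL1. The EGR1 level per length was 3.96, 0.61 and 1.17 CPM per kilobase.

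Of 12 listed dimer partners, the ATF, BATF, JDP and MAF proteins that pair with AP-1 subunits, 10 had a mean of at least 1 CPM. At 2-fold, 3 of the 10 were lower in DDX24-sh1 (2.27% of all genes) and 4 in DDX24-sh2 (3.07%), 0 were higher in either (2.32% and 2.89%), and the 3 lower in both (1.38%) were ATF3, JDP2 and MAFK. The list's median log2 ratio was -0.77 for DDX24-sh1 and -0.75 for DDX24-sh2. Among its genes that averaged at least 10 CPM it was -0.88 and -1.56. ATF3, at 26.8, 3.44 and 2.11 CPM, passed that filter only through its high control level, so these 2 medians are not a check on better-counted partners. ATF3, a stress-induced factor, had 457, 63 and 38 counts, ratios of -2.92 (-3.36 to -2.58) and -3.60 (-4.19 to -3.19) that were lower than that of any member. JDP2, a repressor of AP-1, had 929, 327 and 309 counts (-1.60 and -1.66), and MAFK, a small MAF protein without an activation domain, 4562, 1770 and 1346 (-1.46 and -1.84). The gene highest by the same rule was BATF2, with 27, 35 and 30 counts, whose intervals of -0.49 to 1.06 and -0.73 to 0.88 include 0.

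Among 34 other early genes, 29 had a mean of at least 1 CPM, and EGR2, EGR3, EGR4, ARC and DUSP2 were the 5 below it. EGR1 was thus the EGR gene with a level to compare. At 2-fold, 5 of the 29 were lower in DDX24-sh1 (2.27% of all genes) and 9 in DDX24-sh2 (3.07%), while 0 were higher in DDX24-sh1 (2.32%) but 1 was in DDX24-sh2 (2.89%). The 5 lower in both (1.38%) were NR4A3, DUSP1, KLF4, DUSP5 and CYR61. The median log2 ratio was -0.49 for DDX24-sh1 and -0.62 for DDX24-sh2. NR4A3, an orphan nuclear receptor, had 318, 82 and 40 counts (-2.03 and -3.01). DUSP5, a nuclear ERK phosphatase, had 5413, 2363 and 1586 (-1.29 and -1.85), and KLF4, a zinc-finger factor, 343, 132 and 147 (-1.46 and -1.29). DUSP1, another MAP kinase phosphatase, had 11509, 6102 and 6060 counts, and CYR61, a matricellular protein, 4462, 2278 and 1882. Not all of the list was lower, and BTG2, an antiproliferative p53 target, had 110, 205 and 256 counts (0.79, 0.46 to 1.15, and 1.12, 0.81 to 1.47). TIPARP at 0.19 and 0.20 and KLF2 at 0.28 and 0.18 came next, the KLF2 interval in DDX24-sh2 including 0.

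Upstream of the immediate early genes stand kinases and the factors they act on. All 20 listed upstream factors had a mean of at least 1 CPM and 0 of them reached 2-fold in either direction in either library, near the 2.27% to 3.07% of all genes that did so per direction and library. Their median log2 ratio was -0.07 for DDX24-sh1 and -0.24 for DDX24-sh2. CREB1, which binds the CRE, had 828, 577 and 635 counts (-0.62 and -0.46), ELK3 1746, 1314 and 1193 (-0.51 and -0.63) and MEF2D 2332, 1798 and 1485 (-0.47 and -0.73). MAPK7, which encodes ERK5, was the highest by the rule, with 412, 636 and 575 counts (0.52 and 0.40), and MAP2K1 and MAPK9 followed at 0.13 and 0.20 and at 0.12 and 0.03. SRF, which binds the CArG box, had 970, 989 and 872 counts, ratios of -0.07 (-0.20 to 0.06) and -0.23 (-0.37 to -0.10). These are RNA levels, and the activity of kinases and factors was not measured.

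Of 24 genes known as AP-1 targets, 18 had a mean of at least 1 CPM, and the other 6 were IL1A and the proteases MMP1, MMP3, MMP9, MMP10 and MMP13. At 2-fold, 2 of the 18 were higher (2.32% of all genes) and 2 lower (2.27%) in DDX24-sh1, whereas 1 was higher (2.89%) and 2 lower (3.07%) in DDX24-sh2. In both, 1 was higher (1.19%) and 1, IL11, lower (1.38%). The median log2 ratio was 0.12 for DDX24-sh1 and 0.03 for DDX24-sh2, beside -0.53 and -0.48 for the members and -0.02 and -0.03 for all genes. SPP1, which encodes osteopontin, had 3955, 11910 and 8073 counts (1.49 and 0.95), and the gelatinase MMP2 291, 624 and 479 counts. IL11, a cytokine of the IL-6 family, had 1203, 268 and 267 counts (-2.26 and -2.24), AREG, an EGFR ligand, 1063, 494 and 583 (-1.20 and -0.94), and HMOX1, the inducible heme oxygenase, was at -0.74 and -1.28. The listed targets have other regulators besides AP-1, and binding at them was not measured.

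**Figure D5:**
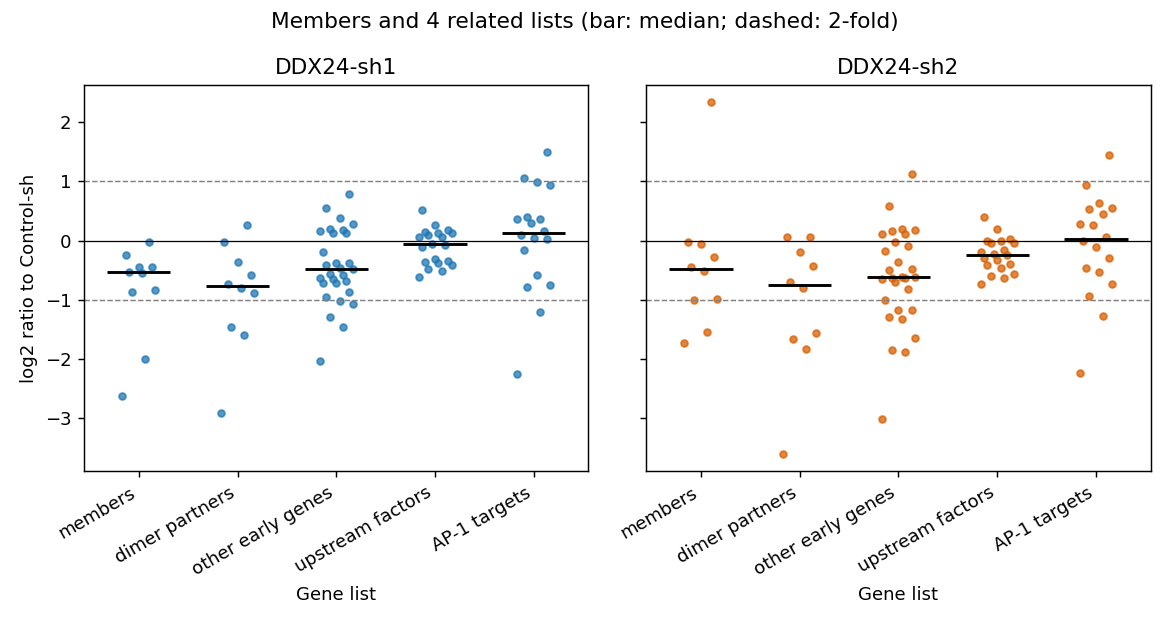
Log2 ratio to Control-sh of each gene with a mean of at least 1 CPM in the members and 4 related lists, with DDX24-sh1 on the left and DDX24-sh2 on the right, bars for medians and dashed lines at 2-fold. The medians of members, dimer partners and other early genes lie between -0.77 and -0.48, and those of the AP-1 targets at 0.12 and 0.03.

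The genes with a pattern most like that of EGR1, the member with the lowest ratios, were sought among 11101 genes that averaged at least 5 CPM by the distance over the 2 log2 ratios. The nearest was ST6GAL2, a sialyltransferase gene with 334, 56 and 108 counts, at a distance of 0.043. CXCL2, a neutrophil-attracting chemokine, followed with 657, 112 and 167 counts at 0.31, and the processed pseudogene SNRPGP10 with 199, 37 and 49 counts at 0.36. The measure rests on 3 libraries and 1 shared control.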

How the data were processed

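RNA-seq was done on 3 A549 libraries, 1 per condition. For each gene the authors deposited an unnormalized whole-number count and an FPKM value, that is, the count relative to the gene's length and the library's size. The submitters' processing notes name Bowtie2 2.0.6, TopHat2 2.0.9, Cufflinks 2.1.1 and Cuffdiff 2.1.1. Their roles, the strandedness and the genome build are not given in the sources used here. Identifiers, starts and ends of all 58735 genes match GENCODE 29 on GRCh38, and 58708 names do.

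From the counts, log2 CPM was computed with edgeR 4.0.16 in R 4.3.3 (TMM scaling, prior count 2), and intervals are exact 95% conditional binomial (Clopper-Pearson) intervals of 2 counts. Since each condition has 1 library, there is no count model and no p-value. Genes that averaged at least 1 CPM formed the background. CPM per kilobase used the gene length in the deposited tables. Percentages of control and fold values are ratios of CPM without the prior count.

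The members and lists were chosen with earlier results of these data known. Named genes were all members, DDX24, the 3 highest and 3 lowest genes per list by the library with the smaller change among genes changed in 1 direction (fewer where fewer exist), and the 3 genes nearest to EGR1. Genes past 2-fold in both libraries, genes below 1 CPM and SRF are named in addition, the last chosen after its values were seen. Some genes covered by the rule are not reported here. The listed names MKL1 and MKL2 are MRTFA and MRTFB in the tables. Marker lists covered epithelial line, alveolar, leukocyte, endothelial and fibroblast genes, and the endothelial sum was 0.499 to 0.765 CPM, the fibroblast sum 8.59 to 10.4 CPM, the alveolar sum 1.52 to 2.38 CPM and the leukocyte sum 0 to 0.277 CPM.

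Alternatives were size factors from DESeq2 1.42.0, library totals as the scale, TMM without mitochondrial genes, a prior count of 0.5, the deposited FPKM as log2(FPKM + 0.1) with the shRNA labels as given or exchanged, a threshold of 1.5-fold, a minimum mean of 10 CPM or none, and subunit shares from counts without length. The ratio and interval steps were tested on simulated data with counting error only, the intervals' own assumption, and with library totals as the scale. That simulation held no variation between cultures, so it does not show how well the intervals cover such variation. Python 3.11.15 with matplotlib 3.10.9 drew the figures.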

Additional observations from a re-analysis of the deposited data

Results flagged for a closer look

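FOS stood out because it moved in opposite directions in the 2 shRNA libraries, each time beyond its counting error: its log2 ratio to the control was -0.86 for DDX24-sh1 and 2.34 for DDX24-sh2. Whether the hairpins differ was not tested, because each has 1 library.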

How the results depend on the processing

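No paired analysis was possible because each condition has 1 library. Under DESeq2 size factors, total counts, TMM without mitochondrial genes, a prior count of 0.5 and the FPKM with exchanged labels, all 20 member ratios stayed within their counting intervals. All these settings start from the same counts, which the exchanged FPKM matched within 1% in genes with at least 50 counts. They are thus no independent check, and the intervals of FOS, FOSB and EGR1 are wide. With the FPKM labels as given, FOS was at 2.26 for DDX24-sh1 and -0.77 for DDX24-sh2, 1 member was at least 2-fold higher in DDX24-sh1 but 0 in DDX24-sh2, and the FOS-family share was 41.4% for DDX24-sh1 and 38.1% for DDX24-sh2, by the exchange of labels. With a mean of at least 10 CPM, 0 members were 2-fold higher in DDX24-sh2, 0 lower in DDX24-sh1, 1 lower in DDX24-sh2 and 0 lower in both, because FOS, FOSB and EGR1 have lower means. At 1.5-fold, 4 members were lower in DDX24-sh1. The shares of all genes at 1.5-fold and above 10 CPM were not computed, so these member counts cannot be set against a background. The median of the dimer partners was -0.88 for DDX24-sh1 and -1.56 for DDX24-sh2 above a mean of 10 CPM, and -0.66 and -0.57 with no filter, as fewer or more genes entered. The partner ATF3 passed the filter of 10 CPM only through its level in Control-sh. Without length, the FOS-family share was 55.2%, 59.9% and 58.9% for Control-sh, DDX24-sh1, DDX24-sh2. Depth limits FOS, FOSB and EGR1 most, at 15 to 243 counts.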
